A study of Mus musculus with 6 samples.

Results

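The genes described here are the Myc paralogs and the proteins that share their dimerization partner Max. They are the activators Myc, Mycn and Mycl, the partner Max, and the Max-binding repressors Mxd1, Mxd3, Mxd4, Mxi1, Mnt and Mga. Every probe set annotated to 1 of these 10 genes alone was kept, whatever its values, which gave 27 of the 45037 non-control probe sets. Myc and Max have 1 probe set each, Mxi1 and Mnt 2, Mycn, Mycl, Mxd1 and Mxd3 3, Mxd4 4 and Mga 5. The cells were long-term blood stem cells (LT-HSCs), which renew themselves for life, sorted from bone marrow as lineage-negative Sca1+ CD150+ CD48- cells. The double knockout (dKO) mice carried MxCre and the floxed alleles c-myc f2 and N-myc f2, and the control mice carried both floxed alleles without MxCre. All mice were 8 weeks old on a mixed background and had 2 daily treatments with pI-pC, a synthetic double-stranded RNA, the last of them 3 days before the cells were taken. The label of control replicate 2 spells the second allele M-Myc. MxCre is driven by an interferon-responsive promoter that pI-pC switches on in many cell types, so deletion is not limited to the sorted cells. There were 3 arrays per group, with RNA pooled from 3 dKO mice or from 2 control mice on each.

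Myc proteins bind DNA as heterodimers with Max at the E-box, whose best-known form is CACGTG, and recruit co-activators there. The Mxd proteins, Mxi1 and Mnt pair with the same Max, occupy the same sites and bring the Sin3 co-repressor with its histone deacetylases. Mga also pairs with Max, through a helix-loop-helix zipper, carries a T-box as well, and belongs to a Polycomb complex with E2f6. In blood cells, Myc proteins drive growth and the step from stem cell to progenitor, whereas Mxd genes are known for rising as cells leave the cycle and differentiate.

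The medians of the 6 arrays differed little (5.90 to 5.97, log2 RMA values), and the number of arrays limits the precision. The Gapdh control probes, which track RNA quality, read higher at the 3' than at the 5' end by 2.12 to 2.36 in the controls and by 2.39 to 2.47 after deletion. For the b-actin control probes the same difference was 0.10 to 0.23 in the controls and 0.20 to 0.21 after deletion, with overlapping groups. Slamf1, which encodes the gate marker CD150, was at 9.16 in control and 9.24 in dKO cells, and Ly6a (Sca1) is not among the genes measured by a probe set of 1 gene. Cd48, which the gate should leave out, was at 8.25 in control cells and higher by 1.16 ± 0.21 (SE, log2) in dKO cells (limma adjusted p = 0.0214). It was the 1 of 6 measured markers of unwanted cells that passed the test. Over all genes 3.56% fell and 4.49% rose. Of 8 measured stem cell markers, 3 fell (Kit, Tek and Hlf) and 0 rose. Of 7 megakaryocyte and platelet markers, 3 rose (Pf4, Ppbp and Itga2b) and 1 fell (Vwf), with Ppbp, a platelet chemokine, higher by 5.67 (log2). Of 6 erythroid markers Klf1 fell and of 8 macrophage markers C1qb rose, while 0 of 10 neutrophil, 0 of 8 T and NK cell and 0 of 6 B cell markers passed. At an unadjusted p of 0.05 the last 3 counts were 2, 0 and 1, with no share of all genes given here for that threshold. These lists include genes in the negative control range in both groups, namely Ms4a1 and Blnk (B cell), Hba-a1 and Rhag (erythroid), Ncr1 (T and NK cell) and Mmp8 (neutrophil), and Ms4a1 is also among the markers of unwanted cells. The counts take the brightest probe set of each gene. At Vcam1, on the macrophage list, 2 of 3 probe sets rose, but not the brightest. The mean level of the megakaryocyte list spanned 7.97 to 8.22 over the control arrays and 8.85 to 9.14 over the dKO arrays. That of the neutrophil list was 5.95 to 6.95 and 5.07 to 6.35. The part of these differences in the results on the network genes was not tested. In bulk RNA of this kind, fewer cells of a type and less RNA per cell cannot be told apart.

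Activators and repressors were both among the genes that fell in dKO cells, and no member rose past the threshold. By limma, with p adjusted by the Benjamini-Hochberg method over all probe sets and a threshold of 0.05, 7 of 27 member probe sets fell and 0 rose (25.9% called). Over the array 6.99% of probe sets were called, 3.41% lower and 3.57% higher. Myc and Mycn are the deleted genes. Without their probe sets, 4 of 23 fell, 17.4% against the background of 3.41%. Counted by gene, through the probe set with the highest mean, 5 of 10 fell and 0 rose, where 8.05% of all genes were called. Of the 8 genes that were not deleted 3 fell, 37.5% against 3.56% of all 18193 genes, and 0 rose, against 4.49%. The median log2 difference of these 8 genes was -0.34, and that of all genes was 0.01. This count by the brightest probe set depended on single arrays. Of the 8 genes 0 fell without dKO replicate 1 or dKO replicate 2. There was 1 without control replicate 2 or dKO replicate 3, and 2 without control replicate 1 or 3. By probe set, 1 of 23 (Mxi1 1450376_at) still fell without dKO replicate 1 or dKO replicate 2. With 1 array left out the whole-array share of falls was also smaller, 1.40% to 1.80%. With the mean over the probe sets of each gene, Mxi1 (limma adjusted p = 0.00191 over genes) and Mga (0.00945) fell, while Mxd4 did not pass (0.143).

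**Figure D1:**
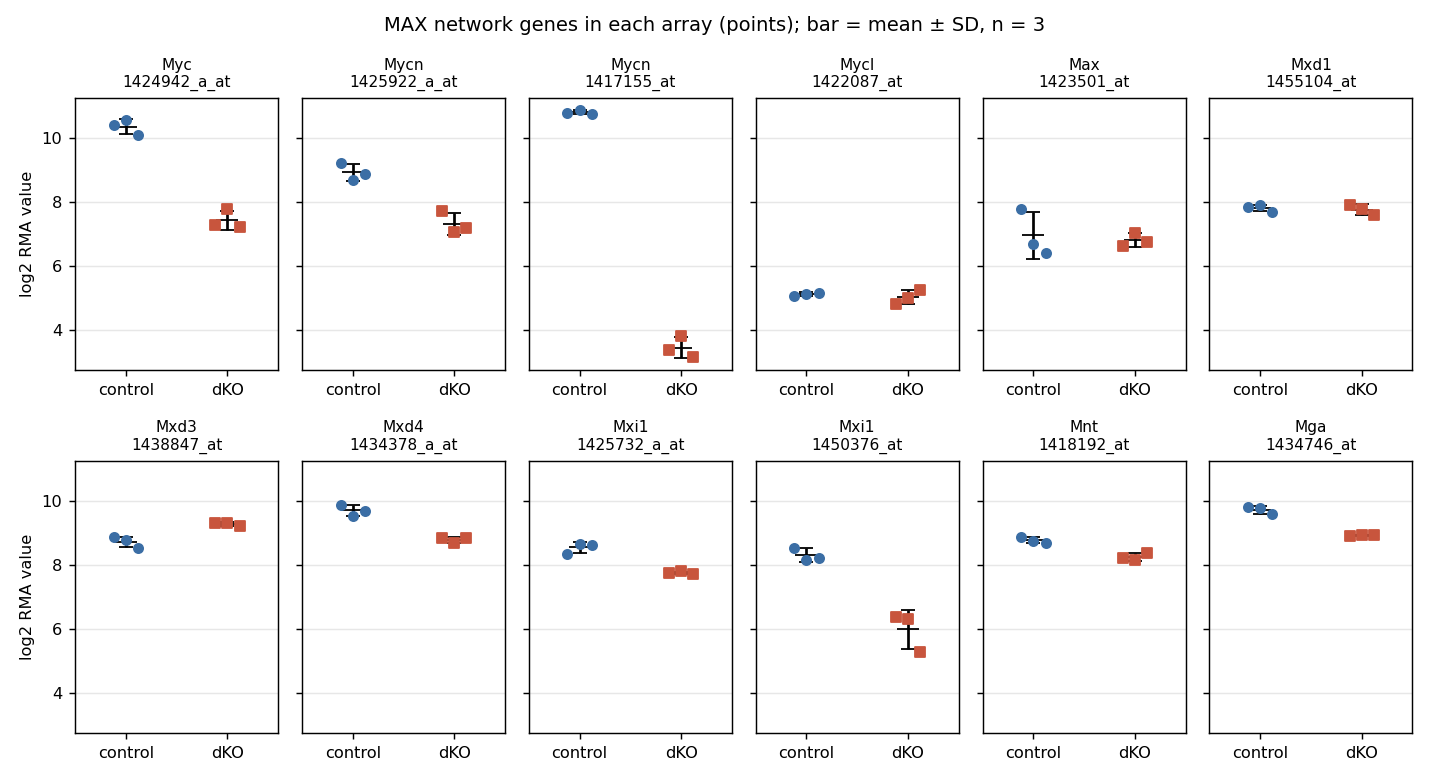
Deposited log2 RMA values (vertical axis) of the brightest probe set of each of the 10 genes, plus the other probe sets past the threshold, in the 3 control arrays (circles) and the 3 dKO arrays (squares), with mean and SD. The groups do not overlap for Myc, both Mycn probe sets shown, Mxd3, Mxd4, both Mxi1 probe sets, Mnt and Mga, and they overlap for Mycl, Max and Mxd1.

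Of the activators, Myc, the paralog with the broadest expression, stood at 10.40, 10.57 and 10.11 in the control arrays and at 7.28, 7.77 and 7.24 in the dKO arrays (log2 RMA values). All dKO arrays were more than 2 units below the lowest control array. The difference was -2.93 ± 0.20 (SE, log2), a 7.63-fold decrease (limma adjusted p = 0.00137), and 6 of the 45037 probe sets had a more negative difference. Myc kept its call in all 12 alternatives, with an adjusted p of up to 0.01. Its exact two-sided permutation p was 0.1, the smallest that 3 arrays against 3 allow.

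Mycn, which encodes N-Myc, gave a different answer at each of its 3 probe sets. At 1417155_at the control arrays read 10.80, 10.87 and 10.76 and the dKO arrays 3.40, 3.81 and 3.17. This was the largest fall of all probe sets on the array, -7.35 ± 0.18 (SE, log2; limma adjusted p = 2.34e-05). The dKO mean of 3.46 was no brighter than the 3 negative controls, which spanned 2.13 to 3.92, so the decrease is at least 119-fold, taken against their top value. At 1425922_a_at the values were 9.23, 8.70 and 8.89 in control and 7.71, 7.08 and 7.20 in dKO arrays. The groups were apart here too, but the difference was -1.61 ± 0.22 (limma adjusted p = 0.00938) and the dKO arrays stayed well above the negative controls. At 1425923_at all 6 arrays read 4.01 to 4.52, with overlapping groups and a difference of -0.08 (limma adjusted p = 0.858). Taken within each array, the gap between 1417155_at and 1425922_a_at was 1.57, 2.18 and 1.88 in control arrays. With 1417155_at set to the top of the negative control range in dKO arrays, since it was not above background there, the gap was -3.80, -3.16 and -3.28 or lower. The change was thus -5.29 or more negative (exact two-sided permutation p = 0.1, the smallest possible, and 0.1 after adjustment over 4 such pairs). Whether a probe set lies within a deleted segment is not given in the sources used here, so the signal left at Myc and at 1425922_a_at says nothing of how complete the deletion was.

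Mycl, the paralog that was not deleted, was not detectably different at any of its 3 probe sets. The brightest read 5.08, 5.14 and 5.18 in control and 4.83, 4.99 and 5.27 in dKO arrays. Its groups overlapped, with a difference of -0.10 and a 95% confidence interval of -0.46 to 0.26. The other probe sets differed by 0.09 and 0.00, and the last of them, 1422088_at, lay in the negative control range in both groups. A measured rise of Mycl by 1 log2 unit would lie outside all 3 intervals, of which the highest reached 0.81.

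Max, the partner that activators and repressors compete for, has 1 probe set. It read 7.78, 6.69 and 6.41 in control and 6.62, 7.04 and 6.77 in dKO arrays. The dKO values lay within the span of the control values. The difference was -0.15 with an interval of -0.97 to 0.66 (limma adjusted p = 0.858). The control SD of 0.73 was the largest of all 27 member probe sets, where the median over the array was 0.21, and control replicate 1 was the array that stood apart. Without it the difference was 0.26 and without control replicate 3 it was -0.43, so no direction can be given for Max.

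**Figure D2:**
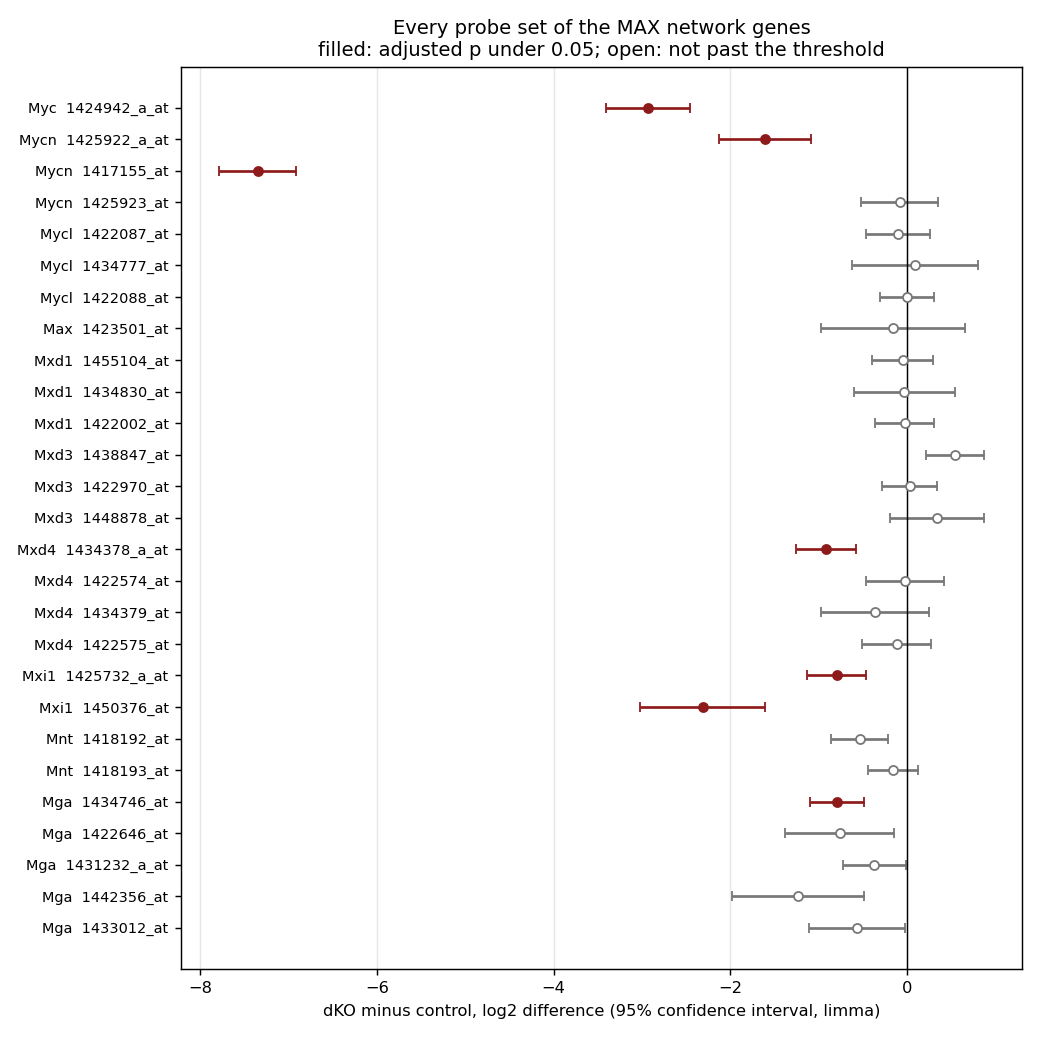
Log2 difference, dKO minus control (horizontal axis), with its 95% confidence interval from limma for each of the 27 member probe sets, filled where the adjusted p was under 0.05. The 7 filled points all lie below 0, from -7.35 to -0.79, and Mxd3 is the gene with all 3 points above 0.

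Among the repressors the most negative difference at a single probe set was at Mxi1, whereas by the brightest probe set of each gene it was at Mxd4. Mxi1 encodes a Mxd-family protein, also called Mxd2, that recruits Sin3. At 1450376_at it read 8.54, 8.14 and 8.22 in control and 6.39, 6.30 and 5.28 in dKO arrays. The lowest control array was 1.76 above the highest dKO array, and dKO replicate 3 was the lowest of all. The difference was -2.31 ± 0.30 (SE, log2), a 4.97-fold decrease (limma adjusted p = 0.00823), and 37 probe sets of the array had a more negative difference. This call was kept in all 12 alternatives, with an adjusted p of up to 0.0319. At the second probe set, 1425732_a_at, the values were 8.35, 8.66 and 8.63 against 7.75, 7.80 and 7.71. The groups were again apart, with a smaller difference of -0.79 ± 0.14 (limma adjusted p = 0.0208). That call did not hold when an array other than control replicate 1 was left out, at adjusted p values of 0.062 to 0.07. The gap between both probe sets changed by -1.52 between the groups (exact two-sided permutation p = 0.1), a comparison added after the values were seen. RefSeq lists 3 transcription starts for Mxi1, and the sources used here do not say which transcripts each probe set detects.

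Mxd4, a repressor of the same family, had the highest level of its 4 probe sets at 1434378_a_at. There it read 9.87, 9.53 and 9.70 in control and 8.83, 8.67 and 8.86 in dKO arrays. Each dKO array lay below each control array, and the difference was -0.92 ± 0.15 (SE, log2), a 1.89-fold decrease (limma adjusted p = 0.0149). It missed the threshold without dKO replicate 1 (0.0508) or dKO replicate 2 (0.0548). The other 3 Mxd4 probe sets, with control means of 7.03, 5.45 and 4.98, had overlapping groups and differences of -0.02, -0.36 and -0.12. With the mean over all 4 the Mxd4 difference was -0.35 (limma adjusted p = 0.143 over genes), so the fall of Mxd4 rests on 1 probe set.

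Mga was lower at all 5 of its probe sets, and 1 of them passed. At 1434746_at it read 9.81, 9.77 and 9.58 in control and 8.92, 8.92 and 8.95 in dKO arrays. The dKO arrays differed among themselves by only 0.02 (SD), and the difference from control was -0.79 ± 0.13 (SE, log2; limma adjusted p = 0.0164). That call was lost without control replicate 1 or 2 or any dKO array, at adjusted p values of 0.0542 to 0.0589. The other 4 differences were -0.76, -0.37, -1.23 and -0.56, with adjusted p values of 0.0688 to 0.217 and unadjusted p values all under 0.05. The probe set with the difference of -1.23, 1442356_at, varied widely in control arrays, at 7.24, 5.95 and 6.50. It passed without control replicate 2 (limma adjusted p = 0.0433) and among the brighter probe sets (0.0355). The brighter probe sets were taken by the mean over both groups, and its dKO mean was 5.33, against 6.56 in control arrays. With the mean over the 5 probe sets the difference of Mga was -0.74 ± 0.12 (limma adjusted p = 0.00945 over genes).

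Mnt, the repressor known for steady expression in cycling and resting cells, read 8.88, 8.75 and 8.69 in control and 8.20, 8.14 and 8.37 in dKO arrays at 1418192_at. The groups did not overlap, but the difference of -0.53 ± 0.14 (SE, log2) did not pass (limma adjusted p = 0.0649). It passed with a trended robust variance prior (0.0442) and when only the brighter probe sets were tested (0.0331). The dimmer probe set 1418193_at differed by -0.15, also with no overlap.

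Mxd3, the family member known for its expression in S phase, had positive differences. At 1438847_at it read 8.86, 8.77 and 8.54 in control and 9.30, 9.30 and 9.21 in dKO arrays. Every dKO array was higher than every control array, by at least 0.35. The difference of 0.55 ± 0.14 (SE, log2) did not pass (limma adjusted p = 0.0648), and it did pass with each array centred on its median (0.0465), with the trended robust prior (0.0329) and among the brighter probe sets (0.033). The other Mxd3 probe sets differed by 0.03 and 0.34 with overlapping groups.

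Mxd1, the founding member of the family, gave 3 readings that were nearly level between the groups. The brightest read 7.84, 7.91 and 7.71 in control and 7.93, 7.80 and 7.59 in dKO arrays. The difference was -0.05 with an interval of -0.39 to 0.29, and the other probe sets differed by -0.03 and -0.02. A measured change of Mxd1 by 1 log2 unit in either direction would lie outside all 3 intervals.

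Taking the repressors as a group, 4 of 19 probe sets fell and 0 rose, and the groups did not overlap at 9 of 19 (47.4%), 8 lower and 1 higher. Over the array the groups did not overlap at 27.4% of probe sets, 14.0% lower and 13.4% higher. Among the brighter 22518 probe sets, those above the median by their mean over all 6 arrays, 9 of 18 member probe sets fell and 1 rose. Of the 14 that belong to repressors 6 fell and 1 rose, where the background was 8.55% lower and 9.11% higher. This filter uses both groups, so a probe set that falls can pass by its control values. Among the falls counted, Mycn 1417155_at and Mga 1442356_at had control means of 10.81 and 6.56. Their dKO means of 3.46 and 5.33 were below the dKO array medians (5.90 to 5.92). These counts are therefore no separate support for a fall.

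The balance of activators and repressors was described by the change of each gene from its own control mean, because levels of different probe sets cannot be set against each other. The mean change of the 3 activators was -1.54, -1.53 and -1.58 in the dKO arrays. The mean change of the 6 repressors was -0.39, -0.44 and -0.43. The mean of the activators was thus the more negative in each dKO array, and the difference between both means was -1.14, -1.09 and -1.14. In control arrays the same quantity was 0.04, -0.03 and -0.01. The shift of the balance was -1.12 with a pooled SD of 0.03 (n = 3 arrays per group) and is given without a test, since the deletion itself lowers 2 of the 3 activators. With the mean over the probe sets of each gene in place of the brightest, the shift was -1.53. Mycn entered the shift of -1.12 by 1425922_a_at (-1.61), its brightest probe set over all 6 arrays. In control arrays alone 1417155_at was brighter, at a mean of 10.81 against 8.94. Its larger fall (-7.35) is not part of the -1.12. Mycl, with a difference of -0.10, had the same weight in the activator mean as Myc (-2.93) and Mycn. Its brightest probe set was dim, at a control mean of 5.13, below the control array medians (5.96 to 5.97).

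**Figure D3:**
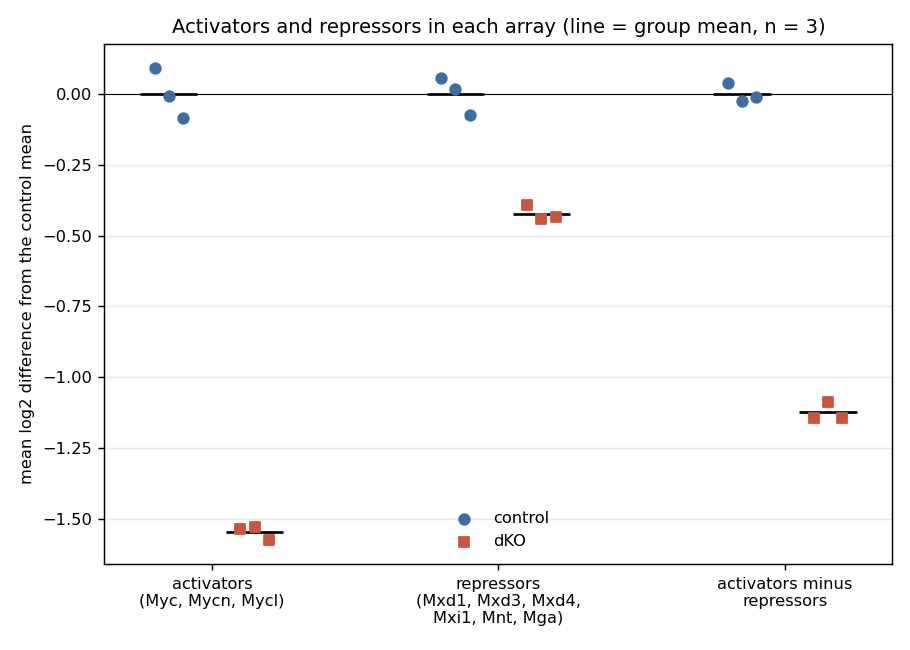
Mean log2 difference from the control mean (vertical axis) over the 3 activators, over the 6 repressors, and their difference, in each control array (circles) and dKO array (squares), with lines at group means. The dKO activators sit near -1.55, the dKO repressors near -0.42, and the difference near -1.12. Mycn is represented by 1425922_a_at.

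The promoters of the 3 repressors that fell, of Mnt and of Max are shown because the E-box is the site that Max dimers are known to bind. The sequences are RefSeq promoter windows of build GRCm38.p6, and 9 of the 10 genes (all but Myc) have at least 1, with 3 for Mxi1. The first 4 are the 250 bases before the start at chr5:34187711-34187960 (minus strand) for Mxd4, chr11:74830674-74830923 (plus strand) for Mnt, chr2:119896978-119897227 (plus strand) for Mga and chr19:53310256-53310505 (plus strand) for the first Mxi1 start. For Max the 30 bases around the E-box are given, chr12:76962234-76962263 (minus strand). All run 5′ to 3′ along the gene, and capitals mark the E-box CACGTG and its variant CACGCG, which reads CGCGTG on the other strand.
Mxd4: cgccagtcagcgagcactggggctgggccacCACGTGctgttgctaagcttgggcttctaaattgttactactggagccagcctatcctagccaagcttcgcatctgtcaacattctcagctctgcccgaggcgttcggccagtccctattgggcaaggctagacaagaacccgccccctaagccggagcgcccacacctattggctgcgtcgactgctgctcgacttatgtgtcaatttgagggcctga
Mnt: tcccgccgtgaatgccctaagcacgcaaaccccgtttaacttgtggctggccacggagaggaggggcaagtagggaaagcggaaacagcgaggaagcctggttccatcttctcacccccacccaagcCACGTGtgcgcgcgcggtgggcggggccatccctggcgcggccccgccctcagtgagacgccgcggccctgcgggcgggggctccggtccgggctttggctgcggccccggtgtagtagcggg
Mga: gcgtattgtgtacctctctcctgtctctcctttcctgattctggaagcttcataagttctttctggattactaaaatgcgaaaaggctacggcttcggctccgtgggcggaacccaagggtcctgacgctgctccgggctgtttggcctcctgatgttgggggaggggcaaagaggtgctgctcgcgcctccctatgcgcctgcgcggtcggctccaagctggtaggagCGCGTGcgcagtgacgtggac
Mxi1: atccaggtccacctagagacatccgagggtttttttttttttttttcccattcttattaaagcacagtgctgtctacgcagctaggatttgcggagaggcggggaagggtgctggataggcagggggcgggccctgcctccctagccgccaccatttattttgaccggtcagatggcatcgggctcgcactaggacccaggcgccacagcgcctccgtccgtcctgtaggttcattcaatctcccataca
Max: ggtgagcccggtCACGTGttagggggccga
The windows searched had 300 bases, 250 before and 50 after the start. CACGTG was found in 3 of the 11 member windows (Mxd4, Mnt and Max, 3 of 9 genes), and in 7.15% of all 32851 windows. It begins 219 bases before the start of Mxd4, 123 before that of Mnt and 3 before that of Max. CACGCG, searched on both strands, was found in 2 of the 11 member windows (Mga and Mycl), and in 9.27% of all windows. None of the 3 Mxi1 windows held either form. CACGTG thus stood before 1 of the 3 repressors that fell. A match is a description of these letters, not evidence of binding.

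Of the cofactors of the network, Hdac1 and Sin3b passed the test by their brightest probe sets. Over all genes 8.05% were called, 4.49% higher and 3.56% lower. These shares are for adjusted p, and no share is given here for the unadjusted counts below. Of 15 measured genes of the Sin3-HDAC co-repressor, which Mxd proteins and Mnt recruit, 2 rose and 0 fell (median 0.07). The histone deacetylase Hdac1 rose by 0.95 ± 0.12 (SE, log2; limma adjusted p = 0.00802) and kept its call in all 12 alternatives. The scaffold Sin3b rose by 0.62 ± 0.14 (0.0394), which missed the threshold whichever array was left out (0.0621 to 0.113) and after quantile normalization (0.0627). The paralogs Sin3a and Hdac2 differed by -0.23 and -0.13 and did not pass. Of 9 measured partners of Mga in the E2f6 Polycomb complex 0 passed by the brightest probe set. The smallest p was that of Pcgf6, a ring-finger subunit (-0.73 ± 0.18, limma adjusted p = 0.0569). Yaf2, also in this complex, rose at 1 of its 2 probe sets, the dimmer. Of 13 Myc co-activators 0 passed limma's test, with 2 at an unadjusted p under 0.05 and the smallest p at the helicase Ruvbl1 (-0.44). Of 14 genes that control Myc turnover 0 passed limma's test, with 1 at an unadjusted p under 0.05, the ubiquitin ligase Huwe1 (-0.35). In the parallel Mlx arm, whose Mondo proteins sense glucose metabolites, 0 of 3 passed limma's test, with 2 at an unadjusted p under 0.05. The smallest p there was that of Mlxip, which encodes MondoA (-0.64, limma adjusted p = 0.162), and Mlxipl lay in the negative control range. Of its 2 listed targets 0 passed limma's test, with 1 at an unadjusted p under 0.05. Arrdc4 differed by 0.52 (limma adjusted p = 0.114) and Txnip by -0.26.

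Genes that Myc is known to induce were lower in part. Of 20 measured, 7 fell and 1 rose, with a median of -0.56, where 3.56% of all genes fell. At an unadjusted limma p under 0.05 there were 16 in either direction, of which Ldha and Eif4e were higher. The 3.56% is for adjusted p, and no share of all genes is given here for the unadjusted threshold. Tert, the catalytic subunit of telomerase, fell by 2.30 ± 0.32 (SE, log2; limma adjusted p = 0.01). The other falls were those of Polr1b, a subunit of RNA polymerase I (-1.11), Rcl1, which acts in ribosomal RNA maturation (-1.06), the pseudouridine synthase Dkc1 (-1.04), the nucleolar protein Nolc1 (-0.95), the box C/D component Nop56 (-0.77) and the chaperonin Hspd1 (-0.57). Ldha, lactate dehydrogenase, went the other way and rose by 0.53 (limma adjusted p = 0.0473). With 1 array left out, 4 (without control replicate 2 or dKO replicate 1) to 5 of these genes fell and 0 rose. Tert, Rcl1, Dkc1 and Nolc1 kept their calls in each of these settings. Of their probe sets, 1 of 2 fell for Tert, 1 of 3 for Nolc1 and 3 of 3 for Dkc1, while Rcl1 has 1. Ldha and Hspd1 missed the threshold whichever array was left out (adjusted p = 0.0868 to 0.132), Polr1b unless it was dKO replicate 3 (0.0664 to 0.0849), and Nop56 without control replicate 2, dKO replicate 1 or dKO replicate 3 (0.0557 to 0.0575). Hspd1 also missed it with each array centred on its median (0.0623), and Ldha after quantile normalization (0.0663). Odc1 and Cdk4, also textbook targets, differed by -0.02 and -0.09. Ncl, Cad, Npm1, Fbl and Pa2g4 did not pass by the brightest probe set, but 1 other probe set of each fell. Of 13 genes listed as repressed by Myc, which include Zbtb17, its partner in repression, 3 rose and 1 fell (median 0.15), where 4.49% of all genes rose and 3.56% fell. The cell cycle inhibitor Cdkn1a rose by 3.05 ± 0.30 (limma adjusted p = 0.00383), Ndrg1 by 1.21 and the integrin chain Itga6 by 0.90, while Ndrg2 was lower (-1.35). Itga6 missed the threshold without dKO replicate 1 (0.0534) and Ndrg2 without control replicate 2 (0.0568). Cdkn2b, on the same list, differed by 1.26 without passing (limma adjusted p = 0.0637). Cdh2, on this list too, rose at 1 of its 2 probe sets, but not at the brightest.

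**Figure D4:**
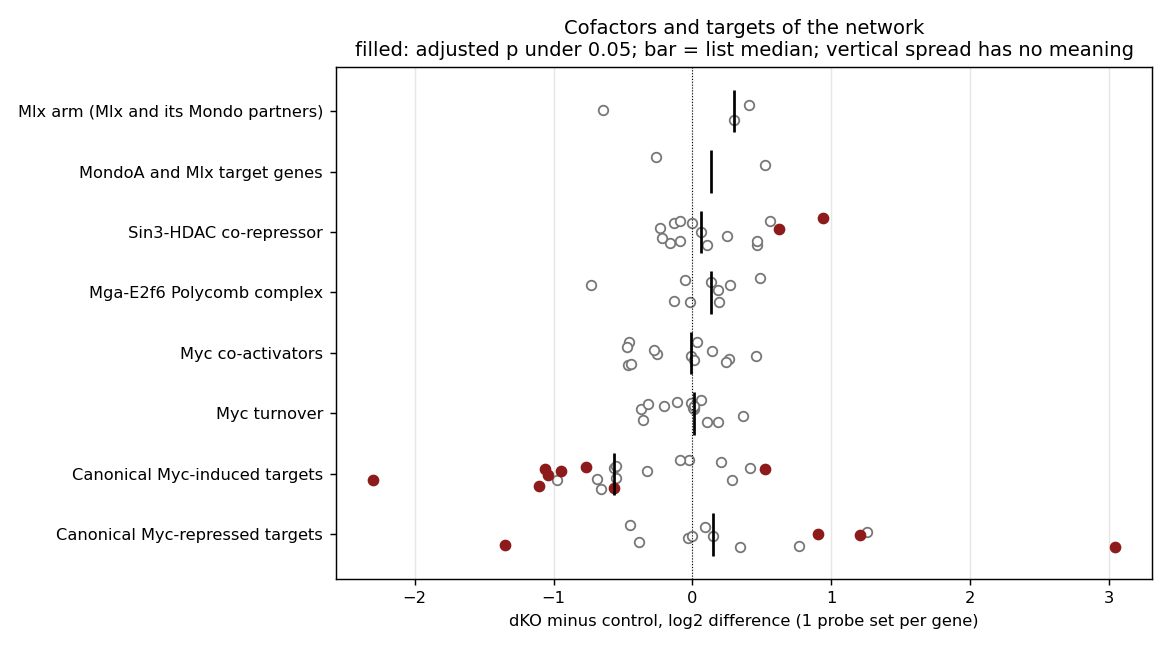
Log2 difference, dKO minus control (horizontal axis), of 1 probe set per gene in 8 lists of cofactors and targets of the network, filled where the adjusted p was under 0.05, with a bar at each list median. Medians of the cofactor lists and of the Mlx arm and its targets lie between -0.01 and 0.30, with Hdac1 and Sin3b as filled points above 0, and 7 of the 8 filled Myc-induced targets lie below 0.

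For the 5 genes past the threshold, the genes with the most similar values across the 6 arrays were found by the root mean square difference between values centred on each gene's mean. This distance rewards a like size of change and does not bear on shared control. Nearest to Myc among 18192 other genes were Neo1, a netrin receptor (0.22 log2 units), Snhg14 (0.25) and Dlg2 (0.30). Each gene was taken by its brightest probe set over the 6 arrays, which for Mycn is 1425922_a_at and for Mxi1 1425732_a_at. In control arrays alone the Mycn probe set 1417155_at was brighter. Nearest to Mycn were Ajuba (0.10), the progesterone receptor Pgr (0.13) and Tgif2 (0.16). Mxd4 was nearest to Qars (0.07), Tmem191c (0.08) and Ldb1 (0.08), and Mxi1 to Selenop (0.05), Fmnl2 (0.07) and Twistnb (0.07). Mga was nearest to Ybx3 (0.03), the ribosomal protein gene Rpl8 (0.05) and Selenbp1 (0.06).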

How the data were processed

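Per the labels, RNA was extracted with Trizol and put through 2 rounds of amplification (NuGEN WT-Ovation Pico) before biotin labelling. The deposited log2 values are RMA expression values per probe set; RMA is named, with no version or settings, per the submitters' processing notes. The log2 scale was read from the values, up to 13.85. RMA scales arrays to each other, so all changes are relative, and it compresses changes of dim probe sets. Genes were named by a platform annotation table (34945 probe sets with 1 symbol, 932 with several, 9160 with none), and 64 array controls were left out. Groups came from sample titles.

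All 45037 probe sets were fitted with limma 3.58.1 (R 4.3.3; lmFit and eBayes, dKO minus control, no covariate, 4 residual and 3.19 prior degrees of freedom) and adjusted by Benjamini-Hochberg. The fit was tested on simulated data. A gene was represented by its probe set with the highest mean over 6 arrays. Members, 16 gene lists and tests were chosen with earlier results of these data known. Genes named were all members, list genes past the threshold (or the smallest p where none passed) and the 3 nearest genes of called members. Sin3a, Hdac2, Txnip, Odc1, Cdk4, Cdkn2b, Slamf1 and Mlxipl were added after their values were seen. The same holds for Yaf2, Vcam1, Eif4e, Ncl, Cad, Npm1, Fbl, Pa2g4 and Cdh2. Alternatives were 2 scalings, a level filter, a trended robust prior, array weights, a replicate block, leaving out each array, and, for genes and the balance, other probe set rules. Per the labels, each replicate was a pool of mice; whether pools shared mice is not given in the sources used here.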

Additional observations from a re-analysis of the deposited data

How the results depend on the processing

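Members kept the sign of every called change in all alternatives. Leaving out 1 array gave 1338 to 1674 called probe sets in place of 3146, 4 to 6 member probe sets in place of 7, 2 to 4 member genes in place of 5, 8 to 10 other network genes in place of 14, and a balance of -1.14 to -1.11. With the replicate block these counts were 1530, 5, 3 and 9. The block follows a number only, since same-numbered arrays did not deviate together (r of -0.02, 0.00 and 0.01 over 45037 probe sets). Under the block, calls were kept for Myc, both Mycn probe sets, Mxd4 and Mxi1 1450376_at and missed for Mxi1 1425732_a_at (0.0637) and Mga 1434746_at (0.0614). Array centring, quantile normalization, the level filter, the trended robust prior and array weights gave 7 to 10 member probe sets. With array centring, which removes the difference in medians between the groups, 2.83% of all probe sets fell and 4.23% rose, in place of 3.41% and 3.57%. The balance was -1.08 after quantile normalization, -1.53 with the mean over probe sets and -1.24 with Mxd1, Mxd3, Mxd4 and Mxi1 as the only repressors. Probe sets in the negative control range (1422088_at of Mycl) cannot show a fall, dim ones little above it (1425923_at of Mycn) have little room for one, and with 3 arrays per group the differences of -0.53 at Mnt and 0.55 at Mxd3 did not pass.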

Other observations

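Of the 8 member genes with more than 1 probe set, 7 had differences of 1 sign at all of them, Mycl being the exception. The brightest probe set, by the mean over both groups, had the largest difference in 5 of the 8 (Mycl, Mxd1, Mxd3, Mxd4 and Mnt). In Mycn, Mxi1 and Mga it did not. For Mycn this depended on the rule, since the mean over both groups includes the fall itself. In control arrays alone 1417155_at was the brightest Mycn probe set (mean of 10.81, against 8.94 at 1425922_a_at), and it had the largest difference (-7.35). For Mxi1 and Mga the brightest probe set was the same in control arrays alone. The poly-A control probe sets (LysX, PheX, ThrX and DapX), which are array controls outside the comparison, had a mean of 10.47 in control replicate 2, against 11.94 and 11.99 in the other control arrays and 11.21 to 11.33 in the dKO arrays. Without control replicate 2 the calls of Mga 1434746_at (limma adjusted p = 0.0589) and Mxi1 1425732_a_at (0.07) were lost, and 3 member genes were called in place of 5. Those of Myc, Mycn, Mxd4 and Mxi1 1450376_at were kept. This array was not special in that respect. The calls of Mga 1434746_at and Mxi1 1425732_a_at were also lost whichever dKO array was left out. Without dKO replicate 1 or dKO replicate 2, 2 member genes were called.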
